A study of Mus musculus with 4 samples.

Results

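The unfolded protein response of the endoplasmic reticulum (ER) was followed through 9 of its genes in sorted Lgr5-GFP high cells of the mouse small intestine. The genes were taken from the deposited expression table by their symbols and are 9 of its 18436 rows. They are the sensor genes Ern1 (encoding IRE1 alpha), Eif2ak3 (encoding PERK) and Atf6, the transcription factor genes Xbp1, Atf4 and Ddit3 (encoding CHOP), the disposal gene Sel1l and the disulphide isomerase genes Pdia4 and Pdia6. Cells came from 2 Lgr5-CREPT WT mice, which carried the Lgr5-EGFP-IRES-creERT2 allele, and from 2 Lgr5-CREPT KO mice, which carried that allele together with CREPT fl/fl. They are called WT and KO mice from here on. All 4 were on the C57BL/6 background and had daily tamoxifen (1 mg, 5 days) before the sort on day 7, so that the control cells had also seen tamoxifen and an active Cre. Cre is made only where the Lgr5 locus is active, and the allele is silenced in some crypts. The sort therefore took the brightest cells of the crypts that expressed it. The study used animals of 6 to 8 weeks and of both sexes, and the sources used here do not say which sex each of these mice was. The comparison asks whether the response genes differed in level when CREPT, encoded by Rprd1b, was deleted in stem cells.

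Proteins that enter the ER are folded there, and unfolded protein is sensed by 3 membrane proteins. IRE1 removes a short stretch from the Xbp1 mRNA, and the mRNA without it encodes the active factor XBP1s, which turns on genes for folding, translocation and disposal. PERK phosphorylates the initiation factor eIF2 alpha, which lowers translation in general while translation of ATF4 rises, and ATF4 in turn activates amino acid and stress genes such as Ddit3. ATF6 travels to the Golgi apparatus, where the proteases S1P and S2P release its active part. In the intestinal epithelium XBP1 is known above all from the secretory goblet and Paneth cells. Much of this control acts on splicing, translation and cleavage, and none of these was measured here: the values are the level of each gene's RNA, all isoforms together.

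The stretch removed by IRE1 is shown because the level of Xbp1 carried the clearest difference among the 9 genes and the gene level does not separate its spliced from its unspliced RNA. Capitals mark the 26 removed bases, from 5524279 to 5524304 on chromosome 11 of GRCm38.p6 (plus strand), inside the coding part of exon 4 of 5, with 30 bases on either side in lower case. Since 26 is not a multiple of 3, the removal shifts the reading frame.
Xbp1 chr11:5524249-5524334: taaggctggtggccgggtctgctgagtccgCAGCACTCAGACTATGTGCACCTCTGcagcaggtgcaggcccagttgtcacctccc
Of the 4 Xbp1 transcripts in GENCODE M21, 3 held this stretch and 0 held its flanks joined, so that this annotation lists no separate spliced form.

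The other sequence that bears on these genes is the ER stress response element (ERSE), CCAAT and CCACG separated by 9 bases, to which ATF6 binds together with NF-Y. Promoter windows of 250 bases before to 50 after the transcription start were taken from RefSeq (GRCm38.p6) and searched on both strands for exact matches. Of the 8 genes with a window (Atf6 had no entry), 1 held the element, Pdia6, at 98 to 80 bases before its start. The 2 boxes are in capitals in the stretch of its promoter and in the sites of the chaperone genes Hspa5, Calr and Hsp90b1. The search fixed the boxes and their spacing, so only the bases between the boxes can differ among these sites.
Pdia6 chr12:17266466-17266534, plus strand: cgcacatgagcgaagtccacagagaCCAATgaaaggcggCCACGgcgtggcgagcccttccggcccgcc
Hspa5 chr2:34772025-34772043, plus strand: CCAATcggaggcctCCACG
Calr chr8:84847075-84847093, plus strand: CCAATgagggtcgaCCACG
Hsp90b1 chr10:86705533-86705551, plus strand: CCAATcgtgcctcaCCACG
Hsp90b1 chr10:86705638-86705656, minus strand: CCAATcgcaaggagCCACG

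Levels are in FPKM, the fragments per kilobase of transcript scaled to each library, which allows levels of different genes to be set side by side. The FPKM totals were 495758 and 499327 in the WT mice and 468830 and 473662 in the KO mice, and read counts, and with them the depth, are unknown. Values were taken as log2(FPKM + 0.5) for limma's moderated test, with Benjamini-Hochberg adjustment over the 12621 genes whose mean was 0.5 FPKM or more, and every log2 fold change below is KO over WT on that scale. All 9 genes passed that filter on low values. Rprd1b was at 17.69 and 18.09 FPKM in WT cells and 6.65 and 7.36 FPKM in KO cells, a log2 fold change of -1.29 (limma adjusted p = 0.0280). The cells had the marks of Lgr5 stem cells in all 4 mice, with Lgr5 at 47.67 and 37.70 FPKM in WT cells and 52.04 and 60.10 FPKM in KO cells, and Olfm4 between 4931.99 and 5350.90 FPKM.

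Among the 9 genes, 1 had an adjusted p below 0.05 in limma's moderated test. This was Xbp1, which was lower in KO cells, in a table in which 2.67% of the genes tested were lower by the same rule. None was higher (0 of 9, against 0.412% of the genes tested), and at an unadjusted p below 0.05 the count was again 1 lower and 0 higher. With an absolute log2 fold change above 1 asked for as well, 0 of the 9 passed, against 1.14% of the genes tested. Both KO values lay below both WT values in 2 genes (Xbp1 and Atf4), where 31.0% of the genes tested did so, and above them in 2 (Ern1 and Eif2ak3), where 25.6% did so. In the other 5 genes the genotypes overlapped. The median log2 fold change of the 9 was -0.11, beside -0.014 for all genes tested. These shares of genes without overlap are close to the background, so the counts set no pattern of the 9 genes apart from the rest of the table.

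**Figure D1:**
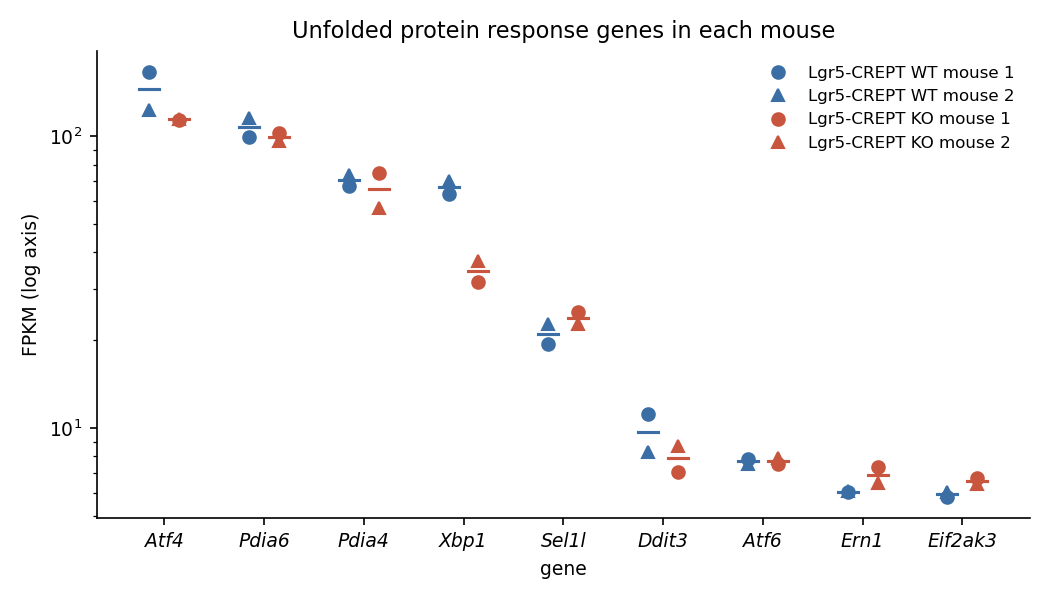
Level of each of the 9 genes (FPKM, log axis) in the 2 WT mice (blue) and the 2 KO mice (red), with circles for mouse 1, triangles for mouse 2 and bars for the mean of each genotype. Xbp1 is separated by the widest gap between genotypes, from 63.23 FPKM in the lower WT mouse to 37.27 FPKM in the higher KO mouse, while the points of most other genes lie close together or cross.

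The levels spanned a wide range and kept nearly the same order in every mouse. Atf4 was highest, followed by Pdia6, Pdia4, Xbp1 and Sel1l, and then by Ddit3, Atf6, Ern1 and Eif2ak3, all between 5.83 and 11.17 FPKM. This order held in 3 of the 4 mice, and in KO mouse 1 Ddit3 (7.06 FPKM) stood below Atf6 and Ern1. The 3 sensors and Ddit3 were thus the lowest of the 9 on the FPKM scale and Atf4 and the isomerases the highest: the mean of Eif2ak3 over the 4 mice exceeded 54.4% of all genes in the table, and that of Atf4 exceeded 97.1%. The ranges of several neighbours in this order overlapped between mice. Within each mouse the pairs named next kept their order, except for Ddit3 with Atf6 in KO mouse 1. Pdia4 (67.53 and 73.58 FPKM) and Xbp1 (63.23 and 70.34 FPKM) overlapped in WT cells, and over the 4 mice so did Atf4 with Pdia6, Ddit3 with Atf6 and Ern1 with Eif2ak3. In KO cells Xbp1 was clear of Pdia4, whose lower value was 56.76 FPKM.

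In the IRE1 branch the factor fell, and its sensor did not pass the test. Xbp1, on chromosome 11 from 5520641 to 5525993 (plus strand), was at 63.23 and 70.34 FPKM in the WT mice and at 31.60 and 37.27 FPKM in the KO mice. Both KO mice were low, and the genotypes did not overlap. The means were 66.8 ± 5.03 FPKM and 34.4 ± 4.01 FPKM (SD, n = 2 each), a ratio of 0.516. The log2 fold change was -0.95 (standard error 0.110, 95% interval -1.23 to -0.66, limma adjusted p = 0.0336). The direction was the same without any one mouse, but the adjusted p then rose to 0.201 without WT mouse 1, 0.295 without WT mouse 2, 0.199 without KO mouse 1 and 0.123 without KO mouse 2, and in those comparisons of 1 mouse with 2 no gene of the table passed. The adjusted p was also above 0.05 when the filter on low values was dropped (0.124) or the intensity trend was left out of the model (0.0688).

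Ern1, on chromosome 11 from 106397620 to 106487796 (minus strand), encodes the kinase and endoribonuclease that cuts Xbp1 mRNA. It was at 6.03 and 6.08 FPKM in WT cells and 7.34 and 6.48 FPKM in KO cells, without overlap. The log2 fold change was 0.17 (95% interval -0.11 to 0.46, limma adjusted p = 0.398), an interval with values on both sides of 0. Xbp1 stood at 10.5 and 11.6 times the FPKM of Ern1 in the WT mice and at 4.31 and 5.75 times in the KO mice. Against Atf6 the same ratio was 8.07 and 9.33 in WT cells and 4.18 and 4.72 in KO cells. Both ratios carry the gap in Xbp1 itself and are not separate evidence of it.

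The IRE1 paralogue of mucous epithelia was lower as well. Ern2 encodes IRE1 beta, which is known mainly from goblet cells, and it was at 5.93 and 8.14 FPKM in WT cells and 2.94 and 2.71 FPKM in KO cells. Its log2 fold change was -1.17 (limma adjusted p = 0.0473), past the fold threshold, and that p reached 0.295 when WT mouse 2 was left out and was above 0.05 without any one of the mice. The 2 paralogues were at like levels in WT cells, with Ern2 at 0.983 and 1.34 times the FPKM of Ern1, and at 0.401 and 0.418 times in KO cells.

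The summed goblet cell markers were lower in the RNA of both KO mice, as was Xbp1. Of 12 goblet marker genes tested, 11 had a log2 fold change below 0, 10 had both KO values below both WT values, and 2 had a limma adjusted p below 0.05, Spink4 and Tspan13. Over all 12621 genes tested, 6605 had a log2 fold change below 0, 31.0% had such a gap and 2.67% were lower by the test. Their summed level was 1354.33 and 2233.85 FPKM in the WT mice and 786.55 and 913.68 FPKM in the KO mice, and none of the 12 was at 0 in every mouse. The 14 enteroendocrine marker genes all had a log2 fold change below 0, 7 of them with a limma adjusted p below 0.05, and their sum was 213.15 and 249.39 FPKM against 61.55 and 78.47 FPKM. Both sums separated the genotypes, as Xbp1 did. The Paneth marker sum did not separate them (1613.21 and 1383.83 FPKM against 923.68 and 2817.07 FPKM). Xbp1 was at 31.60 FPKM in KO mouse 1 and 37.27 FPKM in KO mouse 2, which had the highest Paneth sum. The tuft marker sum was 31.91 and 67.85 FPKM against 27.51 and 9.73 FPKM, lower in both KO mice. Sums of enterocyte markers (390.46 and 518.33 FPKM against 346.35 and 581.71 FPKM) and immune markers (13.39 and 14.79 FPKM against 7.18 and 18.37 FPKM) overlapped, and stromal markers summed to no more than 1.95 FPKM in any mouse. The sum of 10 Lgr5 stem cell markers was 6082.39 and 5878.77 FPKM in WT cells and 6630.76 and 6418.27 FPKM in KO cells, higher in both KO mice. All 10 had a log2 fold change above 0, against 6016 of the 12621 genes tested. In 9 of the 10 both KO values lay above both WT values, against 25.6% of the genes tested, and 0 had a limma adjusted p below 0.05. The part of these markers in the Xbp1 result was not tested, and in bulk RNA of sorted cells fewer cells of a type and less RNA per cell cannot be told apart.

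**Figure D2:**
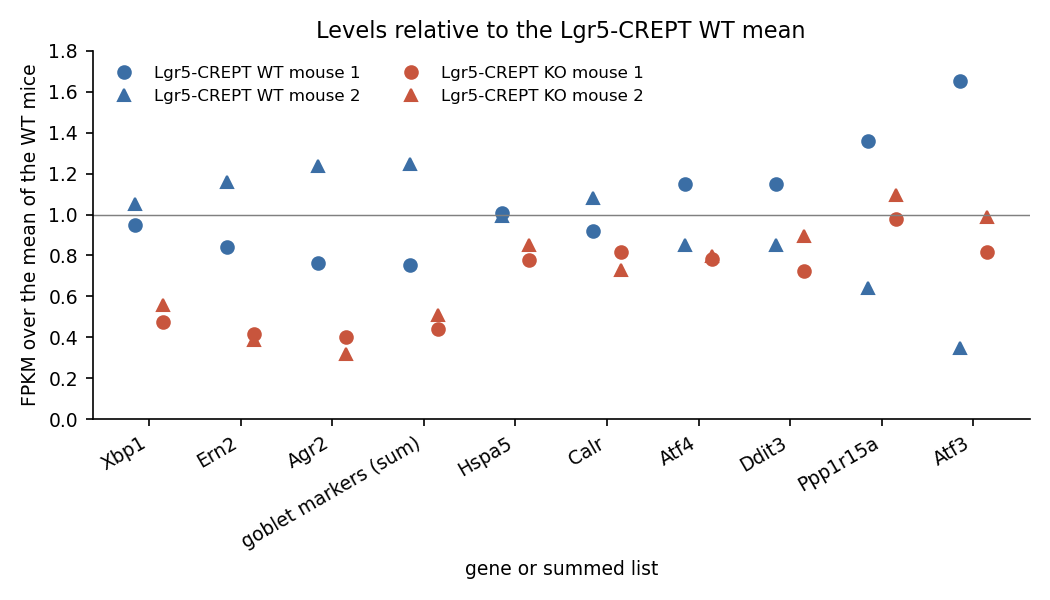
FPKM of each gene, or of the summed goblet markers, divided by the mean of the 2 WT mice (blue; KO mice in red, circles mouse 1, triangles mouse 2, line at 1). Xbp1 (0.473 and 0.558 in the KO mice), Ern2, Agr2 and the goblet sum lie well below the line in both KO mice, while Ppp1r15a and Atf3 are spread widest between the 2 WT mice. The enteroendocrine sum (0.266 and 0.339 in the KO mice) and the tuft sum (0.55 and 0.20), not drawn, were also below 1. The Paneth sum (0.616 and 1.88) lay on either side of 1, and the stem cell sum (1.11 and 1.07) above it.

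In the PERK branch no difference passed the test. Eif2ak3, on chromosome 6 from 70844484 to 70905241 (plus strand), was at 5.83 and 6.05 FPKM in WT cells and 6.74 and 6.43 FPKM in KO cells. The groups did not overlap, but the gap was small: the log2 fold change was 0.14 (95% interval -0.13 to 0.40, limma adjusted p = 0.459). Atf4, on chromosome 15 from 80255184 to 80257545 (plus strand), was at 166.03 and 123.19 FPKM in WT cells and 113.41 and 114.96 FPKM in KO cells. Both KO mice were just below WT mouse 2, and WT mouse 1 stood apart above the other 3. Its log2 fold change was -0.32 (95% interval -0.71 to 0.062, limma adjusted p = 0.262), and it moved to -0.11 without WT mouse 1 and to -0.54 without WT mouse 2.

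Ddit3, on chromosome 10 from 127290793 to 127296291 (plus strand), encodes CHOP, a factor of prolonged stress and cell death. It was at 11.17 and 8.30 FPKM in WT cells and 7.06 and 8.70 FPKM in KO cells, with a log2 fold change of -0.28 (95% interval -0.75 to 0.18, limma adjusted p = 0.401). The genotypes overlapped, and again WT mouse 1 was the highest. The same mouse was highest in Atf3 and Ppp1r15a, though not in Sesn2 or Asns, which were highest in KO mice. Atf3, a stress factor, was at 237.94 and 49.96 FPKM in the WT mice and 117.55 and 142.40 FPKM in the KO mice, and Ppp1r15a, which encodes the eIF2 alpha phosphatase subunit GADD34, was at 37.72 and 17.72 FPKM against 27.06 and 30.38 FPKM. For both of these the KO mice lay between the WT mice, with adjusted p of 0.869 and 0.842 in limma's moderated test. Xbp1 was at 63.23 FPKM in WT mouse 1 and 70.34 FPKM in WT mouse 2, and whether it is linked to this difference between mice was not tested.

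Atf6, on chromosome 1 from 170704457 to 170868585 (minus strand), was the most even of the 9 genes. It was at 7.84 and 7.54 FPKM in WT cells and 7.56 and 7.90 FPKM in KO cells, so the genotypes overlapped fully. The log2 fold change was 0.0070 and its 95% interval ran from -0.24 to 0.25 (limma adjusted p = 0.975). Its relatives differed from it in their values. Atf6b, the paralogue, was at 27.15 and 28.61 FPKM in WT cells and fell to 19.29 and 19.04 FPKM (log2 fold change -0.53, limma adjusted p = 0.0427). Creb3, another membrane-bound factor released by the same proteases, was at 20.36 and 21.14 FPKM and fell to 12.11 and 12.70 FPKM (log2 fold change -0.72, limma adjusted p = 0.0333). Whether Atf6b and Creb3 differed from Atf6 in their change was not tested.

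Sel1l and the isomerases, which act downstream in folding and disposal, overlapped between genotypes. Sel1l, the adaptor of the HRD1 ubiquitin ligase in ER-associated degradation, lies on chromosome 12 from 91806043 to 91849157 (minus strand) and was at 19.37 and 22.69 FPKM in WT cells and 24.99 and 22.68 FPKM in KO cells. Its log2 fold change was 0.18 (95% interval -0.10 to 0.46, limma adjusted p = 0.381). The lower KO value and the higher WT value were almost the same. Pdia4, on chromosome 6 from 47796141 to 47813512 (minus strand), was at 67.53 and 73.58 FPKM against 75.04 and 56.76 FPKM, for a log2 fold change of -0.11 (95% interval -0.49 to 0.27, limma adjusted p = 0.694). Here the 2 KO mice were on either side of both WT mice, and the log2 fold change turned to 0.090 without KO mouse 2. Pdia6, on chromosome 12 from 17266589 to 17284785 (plus strand), was at 99.66 and 115.09 FPKM against 102.41 and 96.48 FPKM, for a log2 fold change of -0.11 (95% interval -0.35 to 0.14, limma adjusted p = 0.536). Xbp1 stood at 0.635 and 0.611 times the FPKM of Pdia6 in WT cells and at 0.309 and 0.386 times in KO cells, a ratio that again carries the gap in Xbp1 itself.

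**Figure D3:**
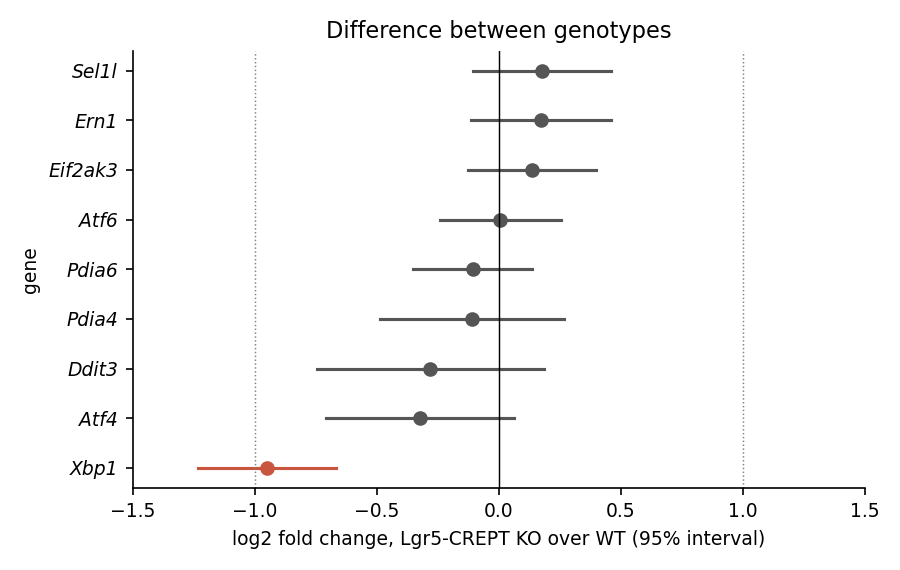
Log2 fold change (KO over WT, on log2(FPKM + 0.5)) of the 9 genes with 95% intervals from limma (n = 2 mice a genotype), with the gene of adjusted p below 0.05 in red and dotted lines at the fold threshold of 1 in each direction. The interval of Xbp1, from -1.23 to -0.66, is the one that does not cross 0, and it spans the threshold line.

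The wider pathway was read from 6 lists of 143 genes in all, which do not include the 9. Of the 137 that passed the filter, 9 were lower and 0 were higher at an adjusted p below 0.05 in limma's moderated test, in a table with 2.67% of genes lower and 0.412% higher. None of the 9 lower genes kept an adjusted p below 0.05 with any one mouse left out, without the filter or without the intensity trend, and 4 pathway genes passed when the libraries were rescaled to the same FPKM total.

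Among 16 relatives of the sensors and factors that process or accompany them, 3 were lower (Ern2, Atf6b and Creb3) and 0 higher, with a median log2 fold change of 0.022. The lowest fold change in the list, -1.31, belonged to Creb3l4, a further membrane-bound factor (limma adjusted p = 0.0659). The protease genes of ATF6, Mbtps1 and Mbtps2, and Rtcb, the ligase that rejoins Xbp1 mRNA after IRE1 has cut it, were named after their values were seen. Rtcb was at 128.66 and 124.23 FPKM against 129.39 and 132.21 FPKM, Mbtps1 at 40.68 and 43.55 FPKM against 48.01 and 45.84 FPKM, and Mbtps2 at 6.79 and 7.08 FPKM against 7.54 and 6.99 FPKM, with limma adjusted p of 0.696, 0.285 and 0.758.

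Of 19 ER chaperone genes, 1 passed the test, Manf, which encodes a secreted ER stress protein and fell from 40.54 and 46.63 FPKM to 28.43 and 27.57 FPKM (log2 fold change -0.63, limma adjusted p = 0.0460). The median log2 fold change was -0.23, and 16 of the 19 were below 0, against 6605 of the 12621 genes tested. With libraries rescaled to the same total 14 were below 0, where the median of all genes was 0.058. In 12 of the 19 both KO values lay below both WT values, a larger share than the 31.0% of all genes tested. This was not counted after rescaling. Hspa5, which encodes BiP, the main chaperone and the protein that holds the sensors inactive, was at 293.04 and 288.62 FPKM in WT cells and 226.43 and 247.18 FPKM in KO cells. Its log2 fold change was -0.30 (limma adjusted p = 0.101), a gap without overlap that did not pass the test. Hsp90b1, which encodes GRP94, was at 266.73 and 292.40 FPKM against 251.32 and 214.54 FPKM (log2 fold change -0.27, limma adjusted p = 0.210). Dnajb9, a co-chaperone gene much used as a readout of XBP1s, was at 23.89 and 16.32 FPKM against 17.75 and 19.51 FPKM (log2 fold change -0.084, limma adjusted p = 0.830). The KO values of Dnajb9 lay between those of the WT mice, and its 95% interval was wide, from -0.57 to 0.40. It was among the 4 genes of the 19 in which the genotypes overlapped, beside the 12 with lower KO values and 3 with higher ones. Its level alone does not show whether the output of XBP1s changed, which was not tested.

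Of 19 disulphide isomerases and oxidases tested, beside Pdia4 and Pdia6, 1 was lower, Erp29, at 61.85 and 60.53 FPKM against 44.53 and 44.15 FPKM (log2 fold change -0.46, limma adjusted p = 0.0426). The median was -0.15. Agr2, the isomerase that folds mucins in goblet cells, was at 212.62 and 342.97 FPKM against 111.29 and 89.10 FPKM, for a log2 fold change of -1.43 (limma adjusted p = 0.0577). Its paralogue Agr3 had the highest fold change of the list, 0.71 (limma adjusted p = 0.0823). Agr2 separated the genotypes as the goblet sum did, and neither Pdia4 nor Pdia6 did so.

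Of 25 genes of ER-associated degradation tested, beside Sel1l, 0 had an adjusted p below 0.05 in limma's moderated test, with a median of 0.0036. At an unadjusted p below 0.05 there were 5 lower and 2 higher, beside 1916 lower and 1170 higher of the 12621 genes tested. Ubxn6, a partner of the segregase p97, had the lowest log2 fold change (-0.73, adjusted p = 0.0638) and Erlec1, an ER lectin, the highest (0.31, adjusted p = 0.139). Syvn1, which encodes HRD1, the ligase that SEL1L serves, was at 27.00 and 30.86 FPKM against 22.08 and 22.41 FPKM (log2 fold change -0.37, limma adjusted p = 0.0999). Herpud1, a scaffold of the same ligase, was at 105.70 and 109.91 FPKM against 122.36 and 107.63 FPKM (log2 fold change 0.090, limma adjusted p = 0.575). The values of these 3 parts of the ligase complex, Sel1l, Syvn1 and Herpud1, thus did not lie on the same side of 0.

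Of 26 genes of translocation into the ER and N-glycosylation, 4 were lower and 0 higher at an adjusted p below 0.05, with a median of -0.19. Ssr4, a subunit of the translocon-associated TRAP complex, fell from 136.00 and 135.65 FPKM to 32.28 and 40.26 FPKM (log2 fold change -1.90, limma adjusted p = 0.0280). Sec61g, a subunit of the translocon channel, fell from 56.01 and 62.97 FPKM to 37.11 and 32.99 FPKM (log2 fold change -0.75, limma adjusted p = 0.0376). Krtcap2, a subunit of the oligosaccharyltransferase, had a log2 fold change of -0.78 (limma adjusted p = 0.0376), and Srpr, part of the receptor for the signal recognition particle, one of -0.52 (limma adjusted p = 0.0431). Other subunits did not pass the test: Ssr1, Ssr2 and Ssr3 of TRAP (-0.19, -0.32 and -0.16) and Sec61a1 and Sec61b of the channel (0.017 and -0.45). These other subunits were named after their values were seen. Of the 26 genes, 21 had a log2 fold change below 0 (20 after either rescaling), against 6605 of the 12621 genes tested before rescaling. In 18 of the 26 both KO values lay below both WT values, a larger share than the 31.0% of all genes tested. This was not counted after rescaling.

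Of 32 genes of the PERK and ATF4 branch tested, beside Eif2ak3, Atf4 and Ddit3, 0 had an adjusted p below 0.05 in limma's moderated test, with a median of 0.033. At an unadjusted p below 0.05 there were 3 lower and 5 higher, beside 1916 lower and 1170 higher of the 12621 genes tested. With libraries rescaled to the same total, the counts over all genes turned to 1412 lower and 1962 higher. Sesn2, a stress gene that ATF4 activates, had the highest log2 fold change, 0.48, with 7.21 and 6.95 FPKM against 10.54 and 9.67 FPKM (adjusted p = 0.0719), and Eif2b5, a subunit of the exchange factor for eIF2, the lowest, -0.37 (adjusted p = 0.0878). Asns, the asparagine synthetase gene that is a standard target of ATF4, was at 45.84 and 42.91 FPKM against 49.43 and 59.60 FPKM (log2 fold change 0.29, limma adjusted p = 0.201). Trib3 and Chac1, both strongly induced in an active PERK response, stayed below the filter, with no value above 0.34 FPKM for Trib3 and none above 0.58 FPKM for Chac1. Asns and Sesn2 were higher in both KO mice, where Atf4 RNA was lower in both, and none of these 3 gaps passed the test.

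**Figure D4:**
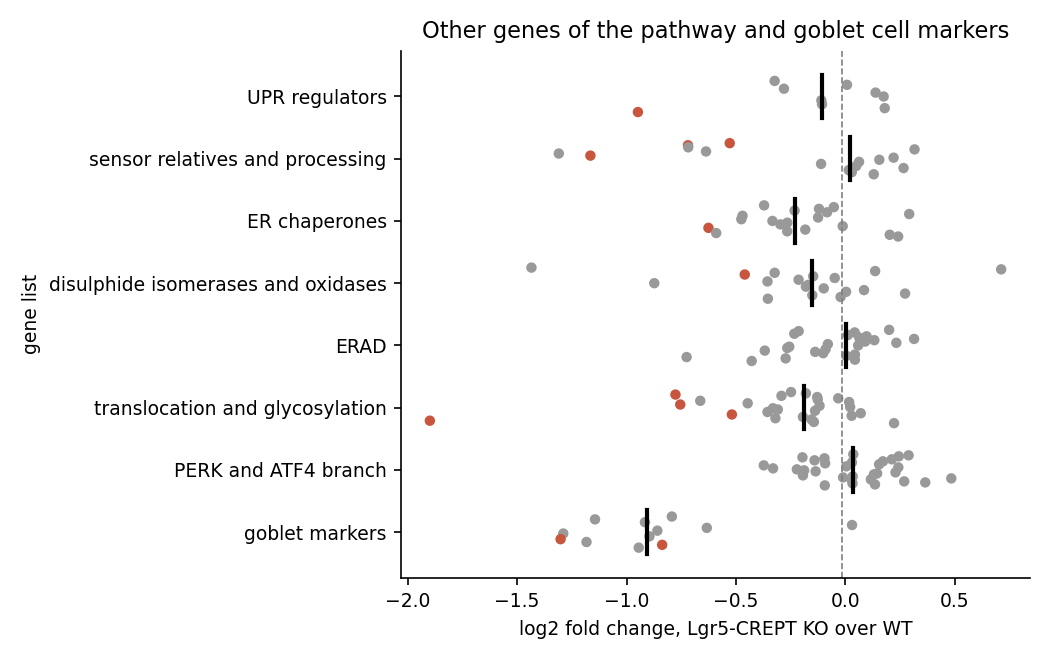
Log2 fold change (KO over WT) of every gene tested in the 9 UPR regulators, the 6 pathway lists and the goblet markers, with genes of adjusted p below 0.05 in red, list medians as black bars and the median of all genes tested (-0.014) as a dashed line. Red points lie only to the left of the line, and the medians of the pathway lists lie between -0.23 (ER chaperones) and 0.033 (PERK and ATF4 branch).

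Exact ERSE matches were rare in promoters at large, at 39 of 32851 windows (0.119%), or 37 of 27025 genes (0.137%). They occurred in 9 of the 120 genes with a window among the pathway lists and the 9 regulators, at 10 sites, since Hsp90b1 has 2. The lists were drawn up as genes of this response, so their share is a description and no test of the element. Of these 9 genes, 8 were tested, and their log2 fold changes ran from -0.37 (Calr) to -0.053 (Canx), with a median of -0.20. None had an adjusted p below 0.05 in limma's moderated test. At an unadjusted p below 0.05, 3 of the 8 were lower, against 1916 of the 12621 genes tested. Pdia6, the 1 regulator with the element, had a log2 fold change of -0.11. Calr, Canx, Creld2, Derl3 and Dnajc3 are named here because their promoters matched, after their values were known.

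Of the other motifs, only the short box CCACG occurred in the regulators with a window. ERSE-II (ATTGG, 1 base, CCACG) occurred in 0.0365% of all windows and in those of Krtcap2, Herpud1 and Dnajb11. The core of the unfolded protein response element, TGACGTGG, occurred in 0.676% of all windows and the C/EBP-ATF element, TTGCATCA, which ATF4 binds, in 0.895%, and neither occurred in any of the 8 regulators with a window. The short box CCACG alone, which is also a part of ERSE and ERSE-II, occurred in 32.8% of all windows and in 5 of the 8. The window of Xbp1 held no exact match to any of these motifs, which says only that these letters are not in it.

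**Figure D5:**
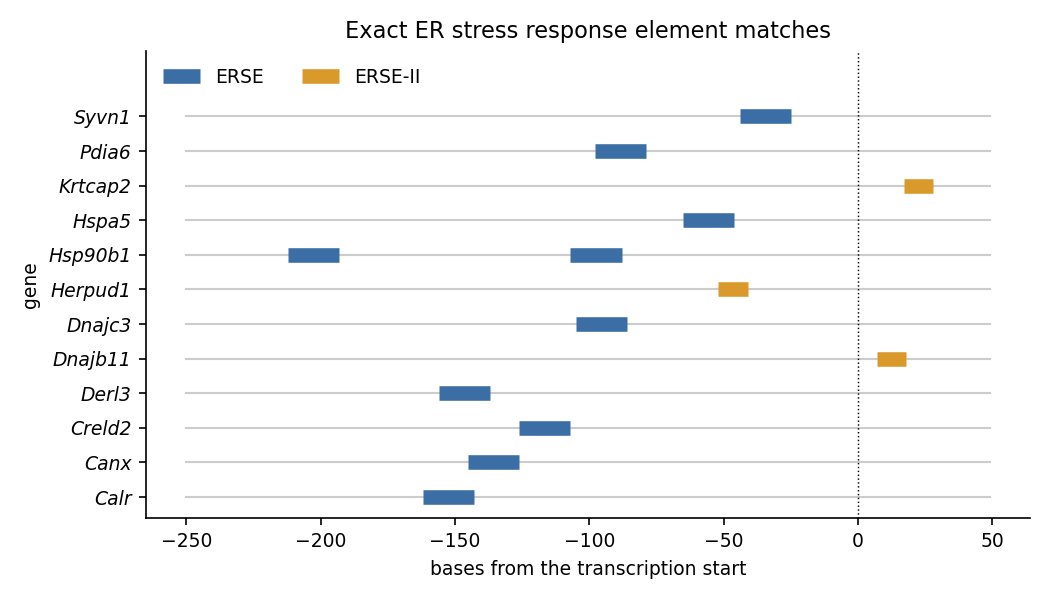
Position of exact ERSE (blue) and ERSE-II (orange) matches in the promoter windows of the pathway genes and regulators, in bases from the transcription start (dotted line), with each grey line spanning 250 bases before to 50 after it. All 10 ERSE sites lie before the start, with that of Pdia6 at 98 to 80 bases before it, and 2 of the 3 ERSE-II sites lie after it.

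For 3 of the regulators the pathway genes with the most similar profile over the 4 mice were found, by the root mean square difference of log2 values after each gene was centred, among 137 genes tested. Those nearest to Xbp1 were Ubxn6 (0.116), Krtcap2 (0.129) and Creb3 (0.134), those nearest to Atf4 were Prdx4 (0.101), Eif2ak2 (0.122) and Nars (0.125), and those nearest to Atf6 were Eif2s1 (0.0226), Rtcb (0.0233) and Aldh18a1 (0.0250). The profiles rest on the same 4 libraries and are given as a description.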

How the data were processed

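The authors deposited FPKM values for each gene and mouse, rounded to 2 decimals. By the study's methods the authors mapped BGISEQ-500 reads to GRCm38.p6 transcripts with Bowtie2 and quantified genes with RSEM, and the submitters' processing notes also name HISAT and mm10. FPKM is relative to all genes of a library, so a shift in abundant genes moves every other value. The study's methods used a model of read counts; without counts, limma 3.58.1 (R 4.3.3, lmFit and eBayes with an intensity trend) was run on log2(FPKM + 0.5) for the 12621 of 18436 genes that averaged 0.5 FPKM or more, and the threshold was an adjusted p below 0.05 with an absolute log2 fold change above 1. Columns were matched to mice by sample title. An exact two-sided permutation test of 2 against 2 cannot go below 0.333, so the p-values rest on variance shared across genes.

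The 9 genes and the lists were chosen with earlier results of these data known. Genes named from a list are those with an adjusted p below 0.05, otherwise the extreme in each direction, and landmark genes named whatever their values. The model was run on simulated data whose set changes were larger than that of Xbp1. That run does not show how the model performs at changes of that size or at the spread between these mice. Promoters came from RefSeq and Xbp1 transcripts from GENCODE M21, both on GRCm38.p6, read with Python 3.11.15 and pandas 2.3.3. Pseudocount, filter, scaling, trend, robust fit, small RNA genes, a replicate block and each mouse left out were varied. Protein features were not analysed here.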

Additional observations from a re-analysis of the deposited data

How the results depend on the processing

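Over 14 alternatives the log2 fold change of Xbp1 ran from -1.07 to -0.83 with an adjusted p from 0.0187 to 0.295, below 0.05 in 8. Without the filter on low values, 0 genes passed the threshold lower and 0 higher among all genes (at an unadjusted p below 0.05, 2250 lower and 1320 higher, smallest adjusted p 0.105), and 0 of the 9 regulators and 0 pathway genes had an adjusted p below 0.05. Without the intensity trend the counts over all genes were 4 lower and 0 higher, with 0 regulators and 0 pathway genes, where the reported counts were 128 lower, 16 higher, 1 and 9. With libraries rescaled to the same total, 4 pathway genes passed, and the regulators' median was -0.0291 (-0.0683 at the same upper quartile), where the median of all genes itself moved from -0.014 to 0.058 (0.022 at the same upper quartile). At an unadjusted p below 0.05 the counts over all genes moved from 1916 lower and 1170 higher to 1412 and 1962 (1648 and 1489 at the same upper quartile). The unadjusted counts given for the lists are without rescaling. Leaving out each mouse in turn gave counts from 0 to 0 for all genes in both directions, regulators and pathway genes alike, log2 fold changes of Xbp1 from -1.07 to -0.83, and a median of the regulators from -0.14 to -0.0195. In the same fits Atf6 ran from -0.0228 (without KO mouse 2, and -0.0195 without WT mouse 2) to 0.0368, and Pdia4 from -0.31 to 0.0896 (without KO mouse 2). These fits have fewer mice and assume that the lone mouse of a genotype varies like the others, and the cause of the other changes was not tested.

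Same-numbered mice are different animals, and their deviations did not go together (correlation -0.0266 over genes), so the numbers were not taken as pairs. With mouse number as a replicate block, 101 genes were lower and 8 higher, 1 regulator (Xbp1, adjusted p = 0.0378) and 1 pathway gene passed. FPKM gives no read counts, so the error of low values could not be set by depth.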
